A study of Rattus norvegicus with 8 samples.

Results

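The transcripts of 10 genes that encode the NF-kappaB subunits and the proteins that restrain them were followed in NR8383 cells, a macrophage line grown from rat lung lavage. The genes were chosen by name: Nfkb1, Nfkb2, Rela, Relb and Rel for the subunits, and Nfkbia, Nfkbib, Nfkbie, Nfkbiz and Tnfaip3 for the inhibitors. Spots that carry these names were found for 9 of the 10 genes, on 10 probes of the 45598 distinct probes of the array, and none carried the name Rel. The cells were at passage 200 (P200, 4 arrays) or at passage 20 (P20, 4 arrays), untreated in both groups and of the same line, with 48 h between seeding and harvest per the labels. The study design calls the 4 samples of a group biological replicates without naming their source, so p-values measure the spread between these samples.

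NF-kappaB proteins bind DNA as dimers of Rel-family subunits, which IkappaB proteins hold in the cytoplasm until a kinase complex marks the inhibitor for destruction. Freed dimers enter the nucleus and switch on inflammatory genes, and among those genes are their own inhibitors, which closes a feedback loop. In macrophages this loop shapes the output of cytokines and chemokines after contact with microbes.

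Each array held between 51.0% and 54.5% of spots well above background and no saturated spot, and the 75th percentile of its processed signal lay between 979 (P200 replicate 4) and 1869. All arrays lay on 1 slide and were read in 1 scan. Of 14 macrophage markers, 12 were well above background on all 8 arrays, among them Cd68, Csf1r, Ptprc and Spi1, while the probes of Adgre1 and Marco did not pass the filter. Of these, 3 were lower at P200 (Itgam, Cd14 and Siglec1). None of 7 epithelial markers passed the filter, and of 14 lymphocyte, fibroblast and endothelial markers the 6 that did had 0 past the limma test (1 at an unadjusted p under 0.05). These 6 (Cd3d, Lck, Col1a2, Dcn, Pecam1 and Cdh5) were also well above background on all 8 arrays. Dcn averaged 0.55 at P200 and 0.34 at P20, in log2 above the 75th percentile of the array. The markers alone therefore do not settle which cell types were present. In RNA from whole cultures, fewer cells that express a gene and less RNA of it per cell cannot be told apart.

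Values are log2 signals relative to the 75th percentile of the same array, so that a value of 0 marks that percentile, and a change is P200 over P20 on this scale. A gene was tested with limma over 15651 genes, and an adjusted p under 0.05 counted as past the test. Of the 8 members tested, 6 fell, 0 rose and 2 were not past the test, and 0 of the 8 were higher at an unadjusted p under 0.05. Of all genes tested, 5.62% were called lower and 5.84% higher. The members' median change was -0.43, that of all genes 0.0036. The falls were moderate: P200 signals were between 68.1% (Tnfaip3) and 80.9% (Nfkb1) of those at P20. On 7 of the 8 tested members every P200 array lay below every P20 array, an arrangement that 9.78% of all genes showed, and on 0 of the 8 did every P200 array lie above (9.66% of all genes). All 8 changes were below 0, as were 49.1% of those of all genes. With each array centred on its median instead, where 740 of 1164 calls over all genes were higher (63.6%, against 914 of 1793, or 51%, here), Relb alone of the members stayed past the test (-0.45, adjusted p = 0.0283). The other calls were lost with larger errors and changes of -0.46 (Nfkbia, adjusted p = 0.0572), -0.49 (Tnfaip3, 0.0974), -0.38 (Nfkbie, 0.0637), -0.35 (Nfkbib, 0.0576) and -0.24 (Nfkb1, 0.354).

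**Figure D1:**
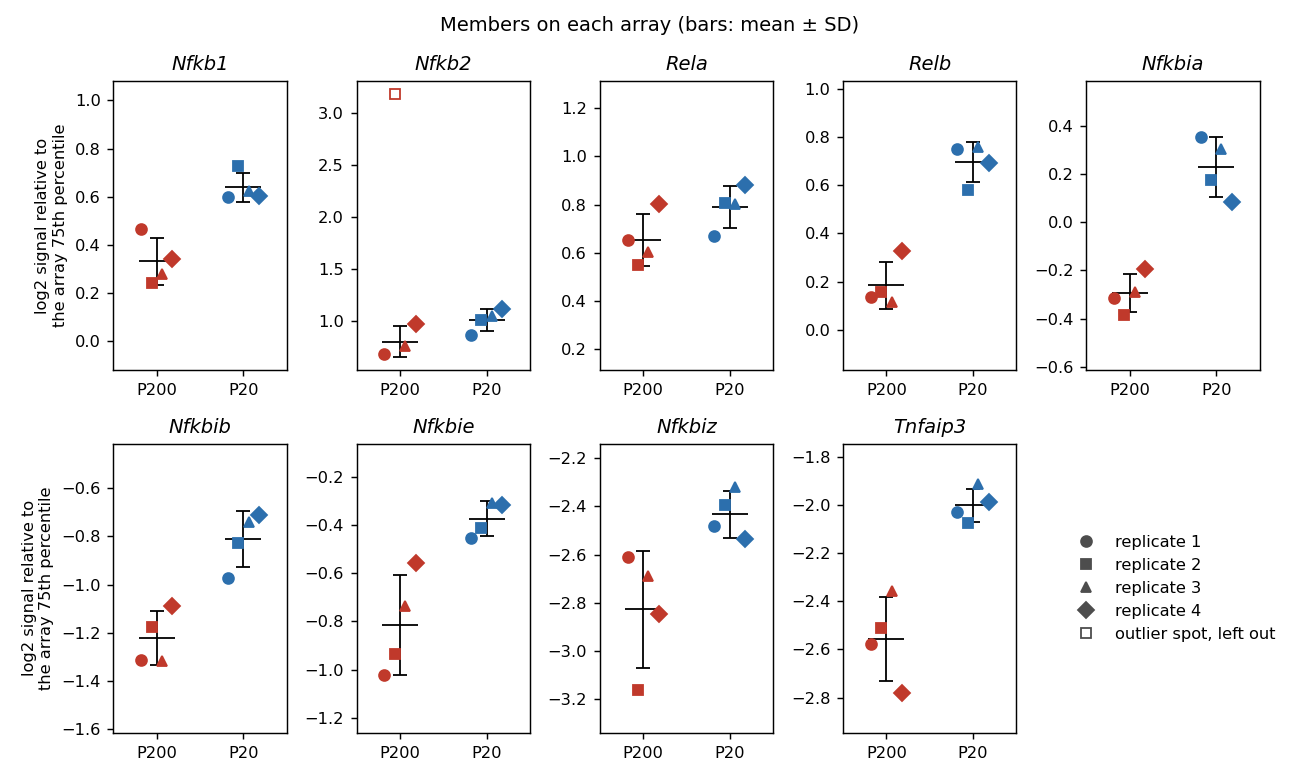
Log2 signal of 9 members relative to the 75th percentile of each array, for 4 P200 arrays (red, left) and 4 P20 arrays (blue, right), with the mean ± SD as bars and the outlier spot of Nfkb2 as an open square. The groups overlap for Rela and for the usable spots of Nfkb2, and do not overlap for the other members shown.

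Among the subunits, Relb moved most. It encodes RelB, the partner of p52 in the alternative NF-kappaB pathway, and its own transcription is raised by NF-kappaB. Its log2 signal was 0.14, 0.16, 0.11 and 0.33 on the P200 arrays, against 0.75, 0.58, 0.76 and 0.69 on the P20 arrays. The highest P200 value stood 0.25 below the lowest P20 value. Relb fell by 0.51 (SE 0.07, adjusted p = 0.00217), to 70.1% of the P20 level. It was also the member that stayed past the test in each of 21 other processing settings run, with adjusted p from 0.000272 to 0.0345.

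A second Relb probe, known to be one only from its description, was looked at after the files were seen. It read -3.73, -3.74, -3.53 and -3.68 on the P200 arrays, against -3.26, -3.16, -3.14 and -3.16 on the P20 arrays. The change there was -0.49 ± 0.07 SE (adjusted p = 0.00218 over 19458 probes), again with no overlap between the groups.

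Nfkb1 encodes p105, which is both the precursor of the DNA-binding p50 subunit and, whole, an inhibitor that holds other subunits. Its brighter probe read 0.47, 0.24, 0.28 and 0.34 at P200, against 0.60, 0.73, 0.62 and 0.61 at P20. That probe gave a fall of 0.31 (SE 0.07, adjusted p = 0.0219), and the groups were parted by 0.13. A dimmer second probe read -2.60, -2.99, -2.58 and -2.60 at P200, against -2.66, -2.27, -2.48 and -2.42 at P20, and its groups overlapped. Its change of -0.24 ± 0.12 SE did not pass (adjusted p = 0.283). The Nfkb1 call was lost in 10 of 21 other settings, with adjusted p up to 0.354, which include the mean of its probes (adjusted p = 0.0864).

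These probes read different stretches of the transcript, and they are shown with the probe of Nfkb2. The values of Nfkb2 and of each tested member other than Nfkb1 rest on 1 probe by name. The probes shown are written 5′ to 3′ as the scanner files give them. On rn4, the assembly of the files, they lie at chr2:233091704-233091763, at chr2:233100929-233107175 (a span longer than the probe) and at chr1:251526647-251526839 (likewise), on the minus, minus and plus strand.
Nfkb1, brighter probe: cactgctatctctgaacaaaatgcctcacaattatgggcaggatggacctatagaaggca
Nfkb1, dimmer probe: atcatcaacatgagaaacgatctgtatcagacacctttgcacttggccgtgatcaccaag
Nfkb2: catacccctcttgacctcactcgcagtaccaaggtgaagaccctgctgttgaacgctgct

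Nfkb2 encodes p100, the precursor of p52 and an inhibitor of RelB. Its 1 spot was marked as an outlier by the scanner software on P200 replicate 2, where it read 3.19, so the gene did not enter the test of all genes. The other P200 arrays read 0.68, 0.75 and 0.97, against 0.86, 1.01, 1.04 and 1.11 on the P20 arrays, and these values overlap. With that array missing, in a fit added after the files were seen, the change was -0.21 ± 0.10 SE (3 P200 and 4 P20 arrays, adjusted p = 0.253), with a 95% interval from -0.43 to 0.02. With the outlier spot kept it was 0.39 ± 0.51 SE (adjusted p = 0.713).

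Rela encodes p65, the main activating subunit of the classical pathway. It read 0.66, 0.55, 0.60 and 0.80 at P200, against 0.67, 0.81, 0.80 and 0.88 at P20. The groups overlapped, and the change of -0.14 ± 0.08 SE did not pass the test (adjusted p = 0.339, 95% interval -0.31 to 0.04). Rela was past the test in 0 of 21 other settings and stayed below 0 in each.

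Rel encodes c-Rel, a subunit found mainly in blood cells. A probe whose description names it, looked at after the files were seen, read -2.59, -3.02, -2.87 and -2.78 at P200, against -2.81, -2.57, -2.73 and -2.54 at P20. The values overlapped, and the change was -0.15 ± 0.11 SE (adjusted p = 0.467 over all probes, 95% interval -0.40 to 0.09).

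**Figure D2:**
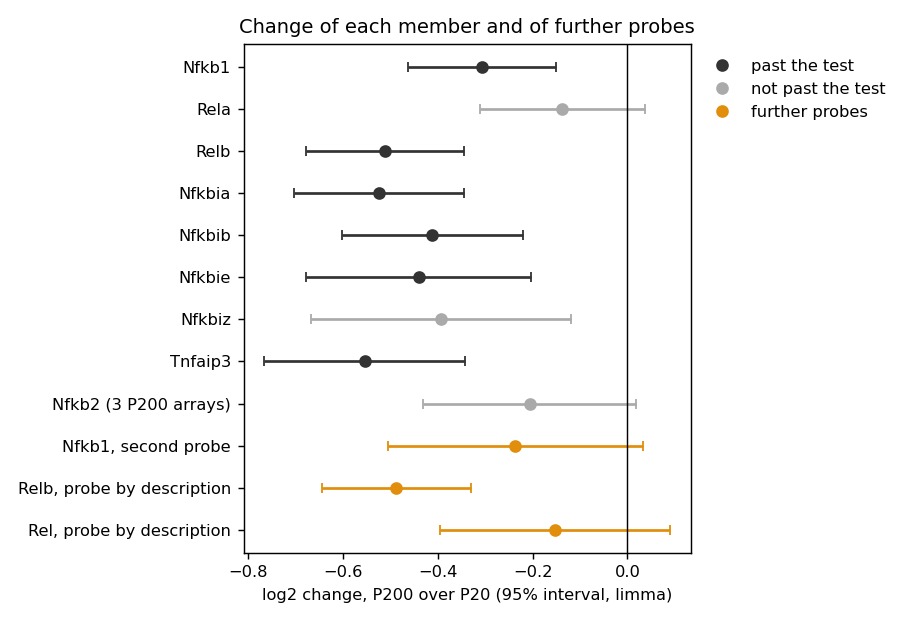
Log2 change, P200 over P20, with its 95% interval from limma, for 8 tested members (black if past the test, grey if not), for Nfkb2 with P200 replicate 2 missing (grey) and for 3 further probes (orange). All points lie below 0, and the intervals of Rela, Nfkb2, the second Nfkb1 probe and the Rel probe include 0.

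Of the 5 inhibitors, 4 fell and 1 was not past the test. Nfkbia encodes IkappaB-alpha, the inhibitor that is destroyed and made anew within each round of NF-kappaB activity. It read -0.31, -0.38, -0.29 and -0.19 on the P200 arrays, against 0.36, 0.18, 0.30 and 0.08 on the P20 arrays. The groups were parted by 0.27. The fall was 0.52 (SE 0.08, adjusted p = 0.00293), to 69.5% of the P20 level, and it stayed past the test in 20 of 21 other settings.

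Tnfaip3 encodes A20, an enzyme that edits ubiquitin chains and shuts signalling off upstream of the kinase complex. It read -2.58, -2.51, -2.36 and -2.78 at P200, against -2.03, -2.07, -1.91 and -1.99 at P20. The P200 arrays were all lower, by 0.28 or more. The change was -0.55 ± 0.09 SE (adjusted p = 0.00541), the largest of the members tested in this fit, and P200 replicate 4 held the lowest value. Without that array it was -0.48 (adjusted p = 0.00586). The rank depends on the processing: with normexp background correction Tnfaip3 changed by -0.42, Relb by -0.48 and Nfkbia by -0.46. The Tnfaip3 probe has no position on rn4.

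Nfkbib encodes IkappaB-beta, which is replaced more slowly than IkappaB-alpha. It read -1.31, -1.17, -1.32 and -1.09 at P200, against -0.97, -0.83, -0.74 and -0.71 at P20, with 0.12 between the groups. It fell by 0.41 (SE 0.08, adjusted p = 0.0141), and without P20 replicate 3 the adjusted p was 0.0514.

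Nfkbie encodes IkappaB-epsilon, an inhibitor that is itself induced by NF-kappaB and prefers dimers of p65 and c-Rel. It read -1.02, -0.93, -0.74 and -0.56 at P200, against -0.45, -0.41, -0.31 and -0.32 at P20. The P200 arrays were the more scattered, with an SD of 0.21 against 0.071 at P20, and the groups did not overlap. The fall was 0.44 (SE 0.10, adjusted p = 0.0282). The call held in 1 of 8 fits with an array left out, the one without P200 replicate 4 (adjusted p = 0.00685), and the others had adjusted p up to 0.0848.

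Nfkbiz encodes IkappaB-zeta, a nuclear member of the family that works as a co-activator for a subset of NF-kappaB targets. It read -2.61, -3.16, -2.69 and -2.85 at P200, against -2.48, -2.40, -2.32 and -2.54 at P20. All P200 arrays were lower, by a gap of 0.073. The change of -0.39 ± 0.12 SE did not pass the test (adjusted p = 0.0746), its 95% interval ran from -0.67 to -0.12, and it passed in 1 of 21 other settings, without P200 replicate 1 (adjusted p = 0.047).

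The bases before the start of the 4 inhibitor genes that fell are shown because NF-kappaB is known to act on its own inhibitors through such sites. Each is the 250 bases before the gene's start in RefSeq's GRCr8 table, 5′ to 3′ on the strand of the gene, and capitals mark matches to the kappaB consensus, a motif of 10 bases read on both strands with overlaps allowed. The windows lie at chr1:15543980-15544229 (Tnfaip3), chr6:78597073-78597322 (Nfkbia), chr9:22947873-22948122 (Nfkbie) and chr1:93181388-93181637 (Nfkbib), all on the minus strand.
Tnfaip3: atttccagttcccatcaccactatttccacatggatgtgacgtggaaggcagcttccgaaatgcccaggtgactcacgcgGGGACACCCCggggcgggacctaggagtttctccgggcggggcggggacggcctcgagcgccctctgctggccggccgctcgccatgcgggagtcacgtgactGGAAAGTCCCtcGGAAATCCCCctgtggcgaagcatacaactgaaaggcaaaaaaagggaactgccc
Nfkbia: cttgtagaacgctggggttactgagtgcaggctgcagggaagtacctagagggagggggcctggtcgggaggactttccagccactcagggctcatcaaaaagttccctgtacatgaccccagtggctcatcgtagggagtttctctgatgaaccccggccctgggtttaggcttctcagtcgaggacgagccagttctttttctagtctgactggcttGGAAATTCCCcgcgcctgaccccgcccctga
Nfkbie: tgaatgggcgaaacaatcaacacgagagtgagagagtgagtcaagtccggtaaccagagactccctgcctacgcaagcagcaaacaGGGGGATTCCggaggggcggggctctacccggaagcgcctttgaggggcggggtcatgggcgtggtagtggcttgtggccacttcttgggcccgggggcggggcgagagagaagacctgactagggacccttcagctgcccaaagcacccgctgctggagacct
Nfkbib: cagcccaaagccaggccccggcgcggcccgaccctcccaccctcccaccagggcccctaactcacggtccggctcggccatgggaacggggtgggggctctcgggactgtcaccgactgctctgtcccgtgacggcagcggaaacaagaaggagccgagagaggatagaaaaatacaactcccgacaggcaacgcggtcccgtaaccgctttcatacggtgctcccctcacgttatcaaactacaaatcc

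The Tnfaip3 window held 3 matches, which begin 170, 67 and 55 bases before the start. Nfkbia had 1, at 31 bases, and Nfkbie 1, at 164 bases. The table held promoters for 9 members, of which 6 had at least 1 match in this window, against 6.42% of 27456 windows of the same length. Nfkb2 (20 bases before the start) and Nfkbiz (13 bases), which were not past the test or not tested, also had a match, and so did Rel. Nfkb1 and Nfkbib, which fell, and Rela had none in these letters.

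Because a choice of scaling shifts all members of an array together, each of the other 7 tested members was also set against Rela on the same array, a comparison that needs no centring and was added after the data were seen. Levels of different probes are not comparable, so only the difference between the groups is read. Rela was taken as the common base after its groups were seen to overlap, so these differences are a description and partly restate that pattern. Relative to Rela, Tnfaip3 averaged -3.21 ± 0.27 at P200 and -2.79 ± 0.10 at P20 (SD, n = 4 each), a difference of -0.42. Nfkbia averaged -0.95 ± 0.04 at P200 and -0.56 ± 0.21 at P20, a difference of -0.39. Relb averaged -0.47 ± 0.06 at P200 and -0.09 ± 0.14 at P20, a difference of -0.37. For these members, and for Nfkbie (-0.30) and Nfkbib (-0.27), the groups did not overlap. For Nfkb1 (-0.17) and Nfkbiz (-0.26) they overlapped. The ratios say nothing about whether Rela itself changed.

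**Figure D3:**
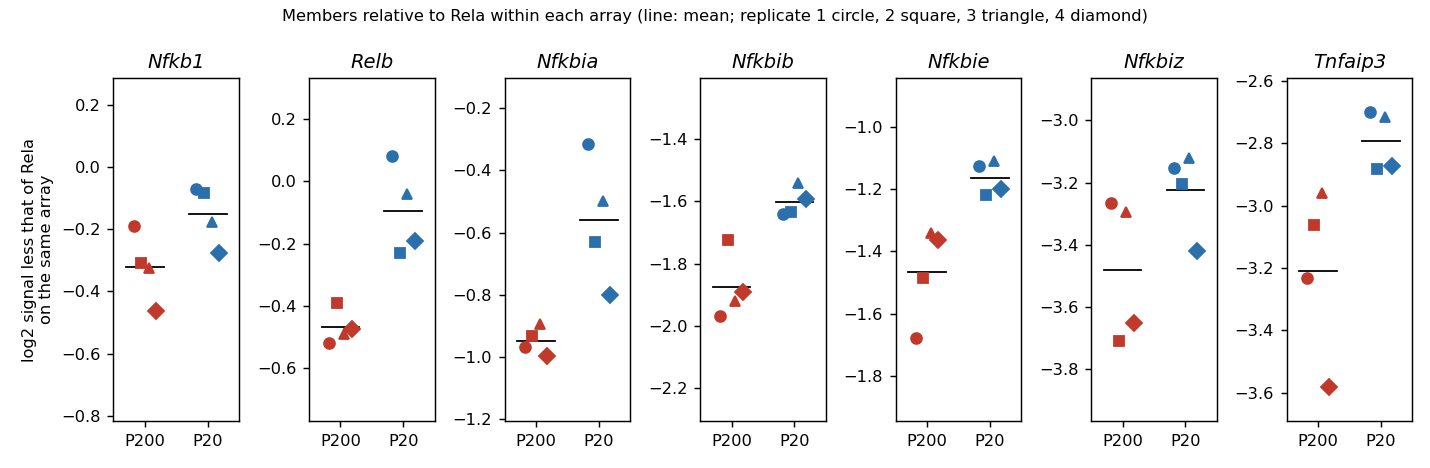
Log2 signal of 7 members less that of Rela on the same array, for P200 (red, left) and P20 (blue, right), with symbols for replicates 1 to 4 and a line at the mean. The groups are apart for Relb, Nfkbia, Nfkbib, Nfkbie and Tnfaip3, and overlap for Nfkb1 and Nfkbiz.

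The arrays of the groups were not spread evenly over the slide, since 3 of the 4 P200 arrays and 1 P20 array lay in row 1, and the rest in row 2. Within row 1 the 6 members that fell differed by -0.64 to -0.22, and within row 2 by -0.68 to -0.19. Each row has 1 array of one of the groups, and the sign within rows was fixed beforehand, since the groups of these members do not overlap. With the row as a block, Relb (-0.55, adjusted p = 0.00771), Nfkbia (-0.57, adjusted p = 0.00771) and Tnfaip3 (-0.55, adjusted p = 0.0254) stayed past the test. Nfkbie (-0.48, adjusted p = 0.06), Nfkbib (-0.39, adjusted p = 0.0629) and Nfkb1 (-0.25, adjusted p = 0.0913) did not.

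**Figure D4:**
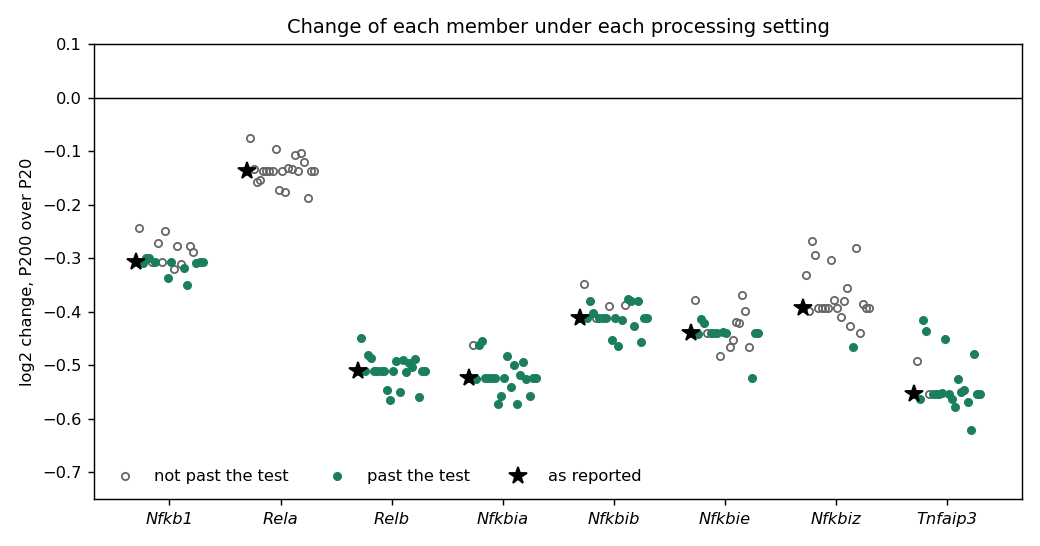
Log2 change of each tested member, P200 over P20, as reported (star) and under 21 other processing settings (filled if past the test, open if not). All values lie below 0. Relb is past the test in each setting and Rela in none.

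Upstream of the subunits, of 13 kinases and their partners 2 fell, 1 rose and 10 were not past the test, with a median of -0.11. Ripk2, the kinase of the NOD sensors, averaged -4.64 ± 0.19 at P200 and -4.08 ± 0.15 at P20 (SD, n = 4 each). It fell by 0.56 (SE 0.11, adjusted p = 0.0135). Ikbke, an IKK-related kinase that is itself induced in inflammation, fell by 0.32 (SE 0.07, adjusted p = 0.0161), and Tab3, an adaptor of the kinase TAK1, rose by 0.34 ± 0.08 SE (adjusted p = 0.027). Without P20 replicate 1, Ripk2 alone of these stayed past the test, and with array medians none did.

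Of 21 adaptors and ubiquitin ligases 19 were tested, of which 1 rose, 0 fell and 18 were not past the test, with a median of 0.0081 and with 2 lower and 3 higher at an unadjusted p under 0.05. The gene that rose was Sharpin, a subunit of the ligase that builds linear ubiquitin chains. It read 1.59, 1.42, 1.56 and 1.79 at P200, against 0.79, 0.84, 0.86 and 0.86 at P20, a change of 0.75 ± 0.08 SE (adjusted p = 0.000434). Of this list 5.26% were called and of the kinases 23.1%, against 11.5% of all genes called in either direction. These shares rest on 1 and 3 genes, too few to set the lists apart. With the replicate number as a block the counts were 2 adaptors and 1 kinase.

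Of 22 other negative regulators 21 were tested, and 4 fell, 1 rose and 16 were not past the test (median -0.083), so that 23.8% were called, against 11.5% of all genes. Of the 20 well above background on all 8 arrays, 3 fell and 1 rose. Otud7b, a ubiquitin-removing relative of A20, is among the 4 of 21 called lower, but it was well above background on 1 of 4 P200 arrays and on all P20 arrays, so it passed the filter through P20 alone and no size is given. Usp18, which takes ISG15 off proteins, fell by 1.12 (SE 0.20, adjusted p = 0.00836). Irak3, an inactive kinase that restrains Toll-like receptor signals, fell by 0.38 (SE 0.09, adjusted p = 0.0245). The Irak3 call was lost in 7 other settings and held in 4, with adjusted p up to 0.233. Zc3h12a, a nuclease that destroys cytokine transcripts, named after its value was seen, also fell (-0.34 ± 0.07 SE, adjusted p = 0.0159).

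Bcl3, a nuclear IkappaB relative that pairs with p50 and p52, was the 1 negative regulator that rose. It read -0.55, -0.77, -0.55 and -0.54 on the P200 arrays, against -1.29, -1.54, -1.37 and -1.18 on the P20 arrays. The groups were far apart, and the change was 0.74 ± 0.09 SE (adjusted p = 0.00106), opposite in sign to those of the 5 inhibitors among the members.

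Of 42 genes known as NF-kappaB targets in other systems, 30 were tested, and 15 fell, 0 rose and 15 were not past the test, with 21 lower and 2 higher at an unadjusted p under 0.05. The share called lower was thus 50%, while of all genes tested 5.62% were called lower and 5.84% higher. The 12 not tested, Il6, Ptgs2 and Il12b among them, were not named on the array or did not pass the background filter. Cxcl1 and Cd40, which count among the 15, passed the filter through P20 alone. Of the 28 targets well above background on all 8 arrays 13 fell, with a median change of -0.41 and a range from -2.98 to 0.42, while the tested members ranged from -0.55 to -0.14. The neutrophil attractants Cxcl3 and Cxcl2 fell most among targets well above background on all 8 arrays. Cxcl3 read -5.18, -5.25, -5.30 and -4.93 at P200, against -2.20, -2.39, -2.08 and -2.06 at P20, a change of -2.98 ± 0.11 SE (adjusted p = 3.29e-07).

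Cxcl2 read -0.48, -1.09, -1.09 and -1.41 at P200, against 1.69, 1.28, 1.76 and 1.72 at P20. It changed by -2.63 ± 0.19 SE (adjusted p = 3.5e-05). Cxcl1, of the same family, was well above background on all P20 arrays and on no P200 array, and an approximate bound puts its P200 level at least 13.2-fold lower. The co-stimulatory receptor Cd40 was likewise above background at P20 only, with an approximate bound of at least 3.09-fold. These bounds set the P20 mean against the higher of each P200 value and the lowest signal of its array that was well above background. They are not strict. On P200 replicate 1 Cd40 read -6.64, above that lowest signal of -6.66, and was still not well above background. The list was drawn up with earlier results of these arrays known, so its count is not independent evidence of a direction.

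**Figure D5:**
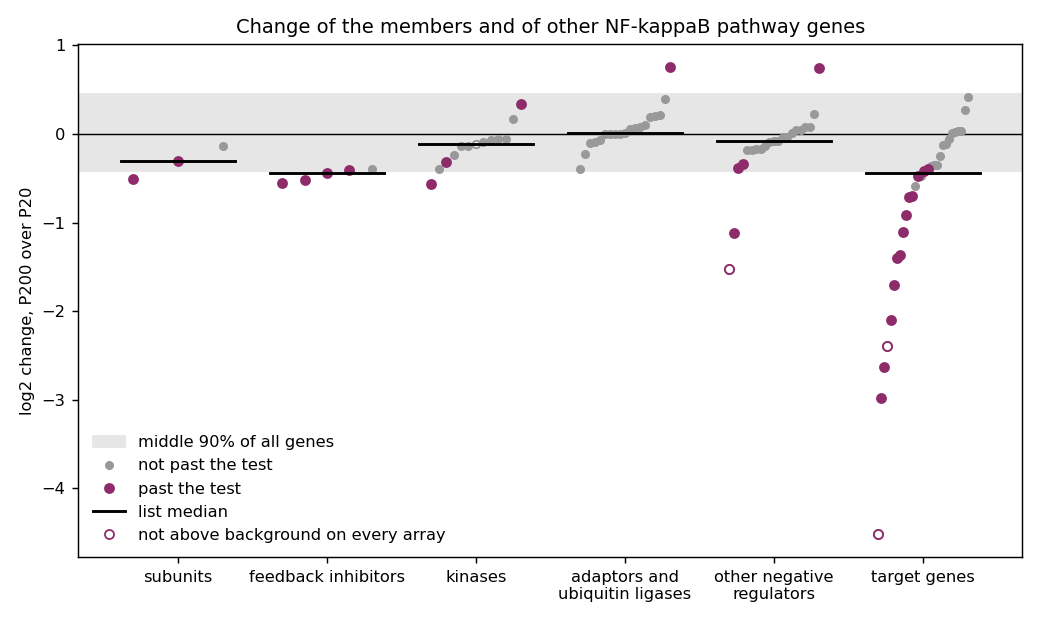
Log2 change, P200 over P20, of each tested gene of 6 lists (purple past the test, grey not, open where not well above background on every array), with the list median as a bar. The band runs from the 5th to the 95th percentile of the changes of all genes (-0.42 to 0.45). The members' changes lie between -0.55 and -0.14, and the targets measured on all 8 arrays reach -2.98. The sizes of the open points rest on signals near background.

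The genes whose profile over the 8 arrays lay nearest to each member that fell were found by the root mean square difference of mean-centred log2 signals. Nearest to Relb was Gch1, the first enzyme in making tetrahydrobiopterin, the cofactor of nitric oxide synthase, at 0.037, with a change of -0.54 (adjusted p = 0.00146), followed by Copz2 at 0.064 and an ID without a symbol at 0.068. Nearest to Nfkbia were an ID without a symbol (0.071), an uncharacterised locus (0.072) and Relb (0.073). Nearest to Tnfaip3 were Plcb1 (0.071), the class I gene RT1-Cl (0.078) and an uncharacterised locus. Nearest to Nfkbie were Tmem88, the haem-degrading Hmox1 and the mitochondrial Cpt1a, at 0.066 each. The class I gene RT1-A1 (0.047) was among the nearest to Nfkb1 and Krtap2-1 (0.05) to Nfkbib, and their other nearest were IDs without a gene symbol or uncharacterised loci.

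Relb and Nfkbia were the members most alike, at 0.073, with 2 genes nearer to Nfkbia and 4 nearer to Relb than that. For the others the nearest member stood behind 48 (Nfkbie), 98 (Nfkbib), 279 (Tnfaip3) or 911 (Nfkb1) other genes. Closeness on this measure includes the difference between the groups, so it mostly gathers genes with a change of like size.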

How the data were processed

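Total RNA of 8 samples was hybridised to single-colour (Cy3) Agilent rat arrays. The deposited scanner files give spot intensity on a linear scale, read by the authors with Agilent Feature Extraction 11.0.1.1 per the submitters' processing notes, with background subtracted and no scaling between arrays, per the file headers. The deposited value table repeats, per spot, the uncorrected median intensity. Its P200 columns 1, 2, 3 and 4 hold the arrays of scanner files 2, 3, 4 and 1, and the scanner files' numbers are used for replicates.

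Each array has 62976 spots. The 4259 controls and spots marked as outliers were left out, a probe took the mean of its spots, and 84 probes lacked a usable spot on at least 1 array and were not tested, the Nfkb2 probe among them. Signals were taken to log2 less the array's 75th percentile. Probes well above background on all 4 arrays of a group (19458) entered, 1 per gene, the one with the highest mean (15651 genes). Names came from RefSeq's GRCr8 table by accession for 21109 probes, by symbol for 6684 and by synonym for 424. The other 17381 kept the name in the scanner files. A gene can thus count under more than 1 name, as Relb does with its second probe, and shares of all genes are shares of names. The P200 over P20 change was fitted in R 4.3.3 by limma 3.58.1 (lmFit, eBayes, no covariate, two-sided, Benjamini-Hochberg over all genes). On simulated data for this comparison over 15651 genes, 48% of changes of 0.5 and 87% of changes of 1 (log2) were recovered. The simulation changed 100 genes by each size, with normal noise independent between genes, and 14 unchanged genes were called. Far fewer genes were changed than the 1793 past the test in the data, so recovery in the data may differ. Precision is limited by the number of arrays and, near background, by dim signal.

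The members, lists and tests were chosen with earlier results of these data known. All members are named. In other lists the up to 4 genes past the test with the largest change are named. For each member that fell, the 3 nearest profiles were found, and those with a gene symbol are named. Several alternatives, among them the difference from Rela, missing arrays and kept outlier spots, were chosen after seeing the data. Alternatives changed centring, background correction, filter, probe choice, blocks, weights and the arrays used.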

Additional observations from a re-analysis of the deposited data

Results flagged for a closer look

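In the 24 groups of 4 values formed by 12 member probes, 3 had a value that lay far from the other 3 by Dixon's 95% criterion, which chance alone passes in about 1 of 20 groups. The Nfkb2 spot on P200 replicate 2 read 3.19, while the next highest of its group was 0.97, and the scanner software had marked it as an outlier. The dimmer Nfkb1 probe read -2.99 on P200 replicate 2, and the nearest of the other 3 arrays read -2.60. The second Relb probe read -3.26 on P20 replicate 1, against -3.16 for the nearest, in a group whose whole range was narrow. The brighter Nfkb1 probe and the first Relb probe had no such value on those arrays.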

How the results depend on the processing

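All 184 values of tested members under other settings stayed below 0, and 154 kept their side of the test, 29 lost the call and 1 gained it. These values are not independent, and they include fits of single probes that mostly repeat the reported value. They also include the difference from Rela for 7 members, called by an exact permutation test over arrays. That difference is only a description, since Rela was chosen after its groups were seen. Of 1793 genes past the test (51% of them higher), 1164 were left when arrays were centred on their median (63.6% higher, all-gene median 0.066) and 800 with no filter on dim probes, where 36121 genes were tested and their median change was 0.101. Of 6 members past the test, 1 (Relb) was left with the array median, 2 (Relb and Nfkbia) with no filter and 3 with the slide row as a block. Leaving out single arrays gave 3 to 6 members, with 3 without P20 replicate 3, and 1232 to 1707 genes. The array median left 0 of 3 kinases past limma's test (2 at an unadjusted p under 0.05) and 3 of 5 negative regulators. Without single arrays there were 1 to 3 kinases (1 without P20 replicate 1), 1 to 2 adaptors (2 without P20 replicate 3), 3 to 5 negative regulators (3 without P20 replicate 3) and 14 to 16 targets. The Nfkb2 change turned to 0.39 with its outlier spot kept, which that spot accounts for. Causes were not tested otherwise.

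P200 and P20 share replicate numbers, and the deviations of same-numbered arrays correlated at 0.025, 0.136, -0.003 and 0.282. With the P200 arrays in the order of the deposited value table they correlated at 0.225, 0.067, 0.1 and -0.112. These values show no clear pairing by number, but 4 correlations cannot exclude one. With the replicate number as a block, 1495 genes and 5 members were past the test (Nfkb1 lost its call, adjusted p = 0.0756), with 1 kinase and 2 adaptors. Of the P200 arrays, replicate 4 alone correlated best with its own number. With normexp the Tnfaip3 and Nfkbiz changes were -0.42 and -0.27.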

Other observations

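Of 71 tested genes within 6 protein-coding genes on either side of a member in RefSeq's table, 1 was lower, 3 were higher, and the median change was 0.009. Over all genes, 5.62% were called lower and 5.84% higher. The neighbours' median was lowest around Nfkbib (-0.16, 7 tested) and highest around Nfkbie (0.14, 4 tested). The lower gene was Sirt2, a deacetylase gene next to Nfkbib (-0.34 ± 0.06 SE, adjusted p = 0.00923). This count was made after the members' values were seen.

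Among 27 target genes with a promoter in RefSeq's table, 9 (33.3%) held a kappaB match in the 250 bases before the start, against 6.42% of 27456 windows of the same length. The list was made of known NF-kappaB targets, so its share is not independent of such sites.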
